A study of Mus musculus with 47 samples.

Results

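The enzymes described here are the histone acetyltransferases, lysine methyltransferases and lysine demethylases on a list of 39 genes, taken by gene symbol or an older symbol of the same gene. Of these, 38 had at least 1 probeset that names that gene alone, and together they had 98 probesets among the 45037 of the array. The other gene on the list, Suv39h1, had no such probeset and was not analysed here. The 38 genes are 9 acetyltransferases, 9 methyltransferases of H3K4 or of the SET and MYND families, 5 H3K9 methyltransferases, 5 methyltransferases of H3K27, H3K36 or H3K79, and 10 demethylases, out of 18193 genes measured. Each gene was read from its brightest probeset, the one of highest mean level over all arrays, with probesets marked as cross-hybridizing (suffix x) taken last, and the other 60 probesets of 28 of the genes served as a check.

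RNA levels came from Affymetrix whole-genome mouse arrays hybridized with RNA of the medial prefrontal cortex (PFC), 1 array for each mouse. The animals were adult males of the C57BL/6J strain. Mice of the chronic intermittent ethanol (CIE) groups breathed ethanol vapor, kept at 10 to 13 mg/l of air, for 16 hours a day on 4 days and then had 7 days without it, over 4 such cycles, and each cycle began with an ethanol injection of 1.6 g/kg. Control (Ctrl) mice breathed air and received saline. Every mouse of both groups also received pyrazole at 1 mmol/kg, an inhibitor of alcohol dehydrogenase, so the comparison is of ethanol on a shared background of this drug. Harvest followed the last session by 0h, 8h, 72h or 7d, with 6 mice in each of the 8 groups except CIE at 8h, which had 5, giving 47 arrays. Exposure was passive and all mice were male.

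Histone acetyltransferases move an acetyl group from acetyl-CoA to lysines of histone tails, which loosens chromatin and marks active promoters and enhancers. Methyltransferases add methyl groups to particular lysines, and the reading depends on the site: H3K4, H3K36 and H3K79 methylation go with transcribed genes, H3K9 and H3K27 methylation with silent ones. Demethylases take the methyl groups off again, either through a flavin-dependent amine oxidase or through the jumonji domain. In brain, ethanol metabolism supplies acetate that can be turned into acetyl-CoA, and several of these enzymes are needed for learning.

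The values are log2 RMA intensities, so that a difference of 1 is a factor of 2 in signal, and differences are given as CIE minus Ctrl. Array medians lay between 6.39 and 6.42, and precision is limited by how many arrays a group has. Markers of cortical projection neurons were present throughout, with a mean level of their 7 probesets between 10.3 and 10.9 in every mouse. Markers of striatal neurons, cells of the neighbouring striatum, were higher in CIE than in Ctrl mice for 16 of 16 genes at 0h and for 15 of 16 at 72h, with a median difference of 0.56 and 0.41, and limma called 0 of them at 0h (10 at unadjusted p up to 0.05). The mean of these 16 markers ran from 7.96 to 8.39 in Ctrl and from 8.21 to 9.88 in CIE mice at 0h. The array of CIE mouse 15 at 8h stood apart, with a mean correlation of 0.967 to the other arrays, against a median of 0.992. That mouse and 4 other 8h mice belong to repeat group 2, a label that the study used as its batch factor for PFC. What was repeated is not stated. Repeat group 2 holds 3 Ctrl and 2 CIE mice at 8h and no mouse of another time. The 8h values that mouse 15 moved most are therefore also given without it. Of the cortical projection neuron markers, Neurod2 was called higher (0.43) and Neurod6 lower (-0.38) at 0h, and at 8h 4 of the 7 had an unadjusted p up to 0.05, with a median difference of 0.26. At 8h the interneuron marker Sst (-0.29) and the microglial marker P2ry12 (-0.57) were also called lower. Their lists did not move as a whole: 2 of 6 interneuron markers were higher and 4 lower (median -0.10). For the microglial markers, 4 of 7 were higher and 3 lower (median 0.10). The part of any of these movements in the results was not tested except where a value is given.

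At each of 0h and 8h, 1 of the 38 enzymes was called. At the threshold of an adjusted p of 0.01 (FDR over all 45037 probesets, limma), the H3K9 methyltransferase Suv39h2 fell at 0h and the demethylase Kdm1a fell at 8h, each the only 1 of the 38 genes to pass at its time. At 72h and at 7d 0 of the 38 genes passed limma, while 6 and 9 had an unadjusted p up to 0.05, beside 8 at 0h and 10 at 8h. No acetyltransferase, H3K4 methyltransferase or methyltransferase of H3K27, H3K36 or H3K79 passed on its brightest probeset at any of the 4 times (0 in each class by limma, with 12 of 36, 6 of 36 and 2 of 20 differences at unadjusted p up to 0.05). In a bulk dissection of this kind, less RNA per cell and fewer cells of the type that makes it cannot be told apart.

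The share of the enzymes called, 2.63% at 0h and at 8h, is set here beside that of all genes. At 0h, 0 of 38 enzymes rose and 1 fell, while 3.96% of the 18193 genes rose and 3.48% fell. At 8h, again 0 rose and 1 fell, where 2.21% of genes rose and 1.28% fell. At 72h 0.286% of all genes were called higher and 0.159% lower, and at 7d 0.434% and 0.291%, shares so small that 0 of 38 is no result about the enzymes. The share of differences at unadjusted p up to 0.05 was 21.1%, 26.3%, 15.8% and 23.7% of the enzymes at 0h, 8h, 72h and 7d, beside 28.4%, 27.2%, 13.0% and 16.6% of all genes. No test of the enzymes against other genes was made.

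Small differences leaned to the lower side. The median difference over the 38 enzymes was -0.03 at 0h, -0.02 at 8h, -0.08 at 72h and -0.03 at 7d, where the median over all genes was 0.01, 0.01, -0.01 and -0.01. CIE means were the lower ones for 23, 23, 27 and 22 of the 38 genes. The share with a higher CIE mean was 39.5%, 39.5%, 28.9% and 42.1% of the enzymes, beside 52.5%, 53.1%, 48.1% and 47.3% of all genes. This lean was not tested. Without mouse 15 the 8h median was again -0.02 (all genes -0.01) with 23 of 38 lower (all genes 9343 of 18193). In that fit 8 of the enzymes changed sign and 17 moved by 0.1 or more. The median size of a difference, leaving out its sign, was 0.10 at 0h, 0.11 at 8h, 0.10 at 72h and 0.09 at 7d, close to the 0.11, 0.12, 0.08 and 0.09 of all genes. The intervals say how much could have been missed: the 95% interval of the difference lay within 0.5 of 0, a factor of 1.41, for 34 of 38 genes at 0h, 32 at 8h, 34 at 72h and 34 at 7d, but within 0.25 of 0 for only 13, 15, 14 and 13. For most of the enzymes the interval therefore reached past 0.25 on at least 1 side, and a p that misses the threshold does not show that a gene did not differ.

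**Figure D1:**
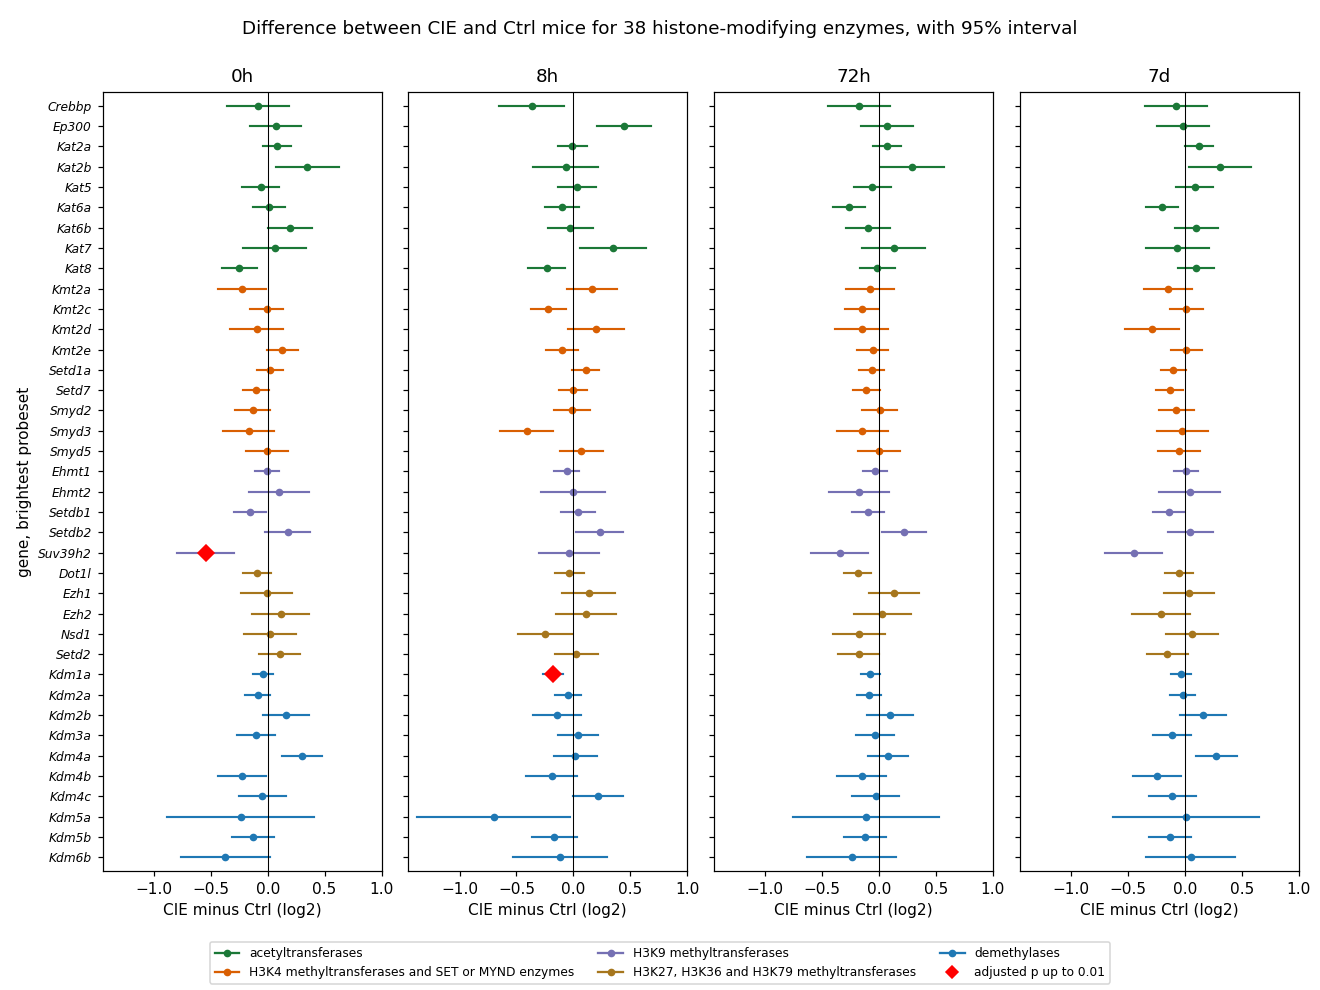
CIE minus Ctrl difference (log2, horizontal axis) of the brightest probeset of each of the 38 enzymes (vertical axis, coloured by class) at 0h, 8h, 72h and 7d, with its 95% interval from the limma fit, and red diamonds for an adjusted p up to 0.01. The 2 diamonds are Suv39h2 at 0h (-0.55) and Kdm1a at 8h (-0.18), and the widest interval at each time is that of Kdm5a.

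The windows around the transcription start of the 2 genes that passed are shown because they are the sites from which these RNAs are made. They are from RefSeq (build GRCm38.p6), each 300 bases long with 250 before the start and 50 after it, 5′ to 3′ on the strand of the gene. Capitals mark the letters of the motifs searched on both strands: the GC box (GGGCGG), the cyclic AMP response element (TGACGTCA) and its shorter core (TGACG), the E-box (CACGTG), the CCAAT box (CCAAT) and an ETS site (CCGGAAG). The first is chr2:3474937-3475236 (minus strand) and the other is chr4:136602674-136602973 (minus strand).
Suv39h2: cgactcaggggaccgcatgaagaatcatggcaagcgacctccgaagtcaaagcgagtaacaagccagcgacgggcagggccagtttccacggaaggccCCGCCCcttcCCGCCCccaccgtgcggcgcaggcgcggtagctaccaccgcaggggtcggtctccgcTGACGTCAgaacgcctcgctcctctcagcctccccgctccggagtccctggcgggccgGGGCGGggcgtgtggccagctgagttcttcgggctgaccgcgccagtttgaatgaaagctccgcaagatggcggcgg
Kdm1a: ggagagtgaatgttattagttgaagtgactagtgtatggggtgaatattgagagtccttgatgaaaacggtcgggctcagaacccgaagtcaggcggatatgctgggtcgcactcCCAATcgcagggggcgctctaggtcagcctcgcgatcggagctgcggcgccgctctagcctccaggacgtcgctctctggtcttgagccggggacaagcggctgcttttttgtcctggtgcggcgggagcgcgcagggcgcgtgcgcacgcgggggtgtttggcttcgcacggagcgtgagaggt
The Suv39h2 window held 3 GC boxes and 1 cyclic AMP response element, whose letters hold the shorter core on both strands, and the Kdm1a window held 1 CCAAT box. A GC box was in 26 of 41 windows of the 30 enzymes that have one in the table (63.4%), against 35.7% of all 32851 windows of this length, and the full cyclic AMP response element was in 1 of 41 (2.44%), against 1.79%. The shorter core was in 34.1% of the enzymes' windows and 20.8% of all, the E-box in 9.76% and 7.15%, the CCAAT box in 34.1% and 37.4%, and the ETS site in 14.6% and 8.86%. The median window of these enzymes held 28 CpG, against 7 over all windows. These are matches of letters and no measure of binding.

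Suv39h2, which puts the tri-methyl mark of heterochromatin on H3K9, was lower at 0h in every CIE mouse than in any Ctrl mouse. On its brightest probeset Ctrl mice had a lowest value of 5.75, a median of 5.94 and a highest of 6.15, and CIE mice 5.23, 5.38 and 5.55. The groups did not overlap. The difference was -0.55 (SE 0.13, 95% interval -0.80 to -0.29, adjusted p = 0.00229), so that CIE mice stood at 68.5% of the Ctrl signal. It passed in each of the 12 fits that left out 1 mouse at 0h, with differences from -0.58 to -0.50. With the mean of the striatal markers as a further term it was -0.62 (adjusted p = 0.00158). The probeset is a dim one, with a mean of 5.62 over all arrays, below the median of every array, and a filter at a mean of 6 would have left it out.

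The later times gave a more mixed record for Suv39h2. At 8h the difference was -0.04 (95% interval -0.30 to 0.22), and without mouse 15, whose value of 6.38 was the highest of its group, it was -0.25 (adjusted p = 0.145). The other CIE mice at 8h had 5.15, 5.19, 5.20 and 5.72, beside 5.33 to 5.85 in Ctrl mice. At 72h it was -0.35 (adjusted p = 0.145) and at 7d -0.45 (adjusted p = 0.0335), short of the threshold at both. At 7d the groups again did not overlap: Ctrl mice had a lowest value of 5.84, a median of 5.92 and a highest of 6.00, and CIE mice 5.34, 5.45 and 5.75. A model of the 7d arrays alone called this difference, and so did models with repeat group as a term, with repeat group 1 alone and with array weights. The test of whether the difference varied over the 4 times gave an adjusted p of 0.174 on this probeset. The study counted this same probeset among genes it picked from these mice, so its fall is no independent evidence.

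The other probesets of Suv39h2 differed among themselves. The one next in brightness fell at 0h by 0.56 (SE 0.10, adjusted p = 0.0002), with Ctrl mice between 5.65 and 6.08 and CIE mice between 5.12 and 5.59, and again no overlap. With the striatal term it was -0.42 (adjusted p = 0.00248). At 72h it differed by 0.09 and at 7d by 0.18 (95% interval -0.03 to 0.39), an interval apart from that of the brightest probeset at 7d, and its difference did vary with time (F test, adjusted p = 0.00218). The dimmest of the 3 showed 0.02 at 0h (95% interval -0.21 to 0.25), also apart from the brightest. The fall at 0h was thus seen on 2 of the 3 probesets, and the lower values at 7d on 1 of them.

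The other H3K9 enzymes did not pass. Setdb1 and Setdb2 are SET-domain enzymes related to each other, and Ehmt1 and Ehmt2 form the complex that makes mono- and di-methyl H3K9. Setdb1 differed by -0.15 at 0h (adjusted p = 0.131) and Setdb2 by 0.23 at 8h (adjusted p = 0.124). Ehmt1 differed by -0.06 at 8h (95% interval -0.17 to 0.05), and its interval ran from -0.11 to 0.10 at 0h and from -0.10 to 0.11 at 7d. Ehmt2 differed by 0.10 at 0h (95% interval -0.17 to 0.36) and by 0.04 at 7d (-0.22 to 0.31).

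Kdm1a, also called LSD1, removes mono- and di-methyl groups from H3K4 with its amine oxidase domain and works in the CoREST complex. On its brightest probeset the Ctrl mice at 8h had a lowest value of 10.86, a median of 10.88 and a highest of 10.91. The 5 CIE mice had 10.59, 10.69, 10.70, 10.76 and 10.78. All 5 lay below all 6 Ctrl mice. The fall was small, -0.18 (SE 0.05, 95% interval -0.27 to -0.09, adjusted p = 0.00884), leaving 88.3% of the Ctrl signal. Kdm1a had the smallest spread within groups of the 38 enzymes, an SD of 0.063 beside a median of 0.162.

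The call on Kdm1a lay close to the threshold and was lost in most fits that left out 1 mouse. It was kept in 2 of the 11 fits that left out 1 mouse at 8h, those without CIE mouse 51 (adjusted p = 0.00741) or CIE mouse 69 (0.00633). It was lost without any 1 of the 6 Ctrl mice (66, 75, 79, 32, 42 or 50, adjusted p from 0.0134 to 0.0187), and without CIE mouse 40 (0.0133), 23 (0.0217) or 15 (0.0461), where the difference was -0.15. The direction held in all 11. Within repeat group 1 the difference was -0.12 (3 against 3 mice) and within repeat group 2 it was -0.26 (2 against 3), and the fit of repeat group 1 alone gave an adjusted p of 0.26. The other probeset differed by -0.22 at 8h (adjusted p = 0.0411; 0.171 without mouse 15). At the other times the brightest probeset differed by -0.04, -0.08 and -0.03, and its dependence on time had an adjusted p of 0.251.

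**Figure D2:**
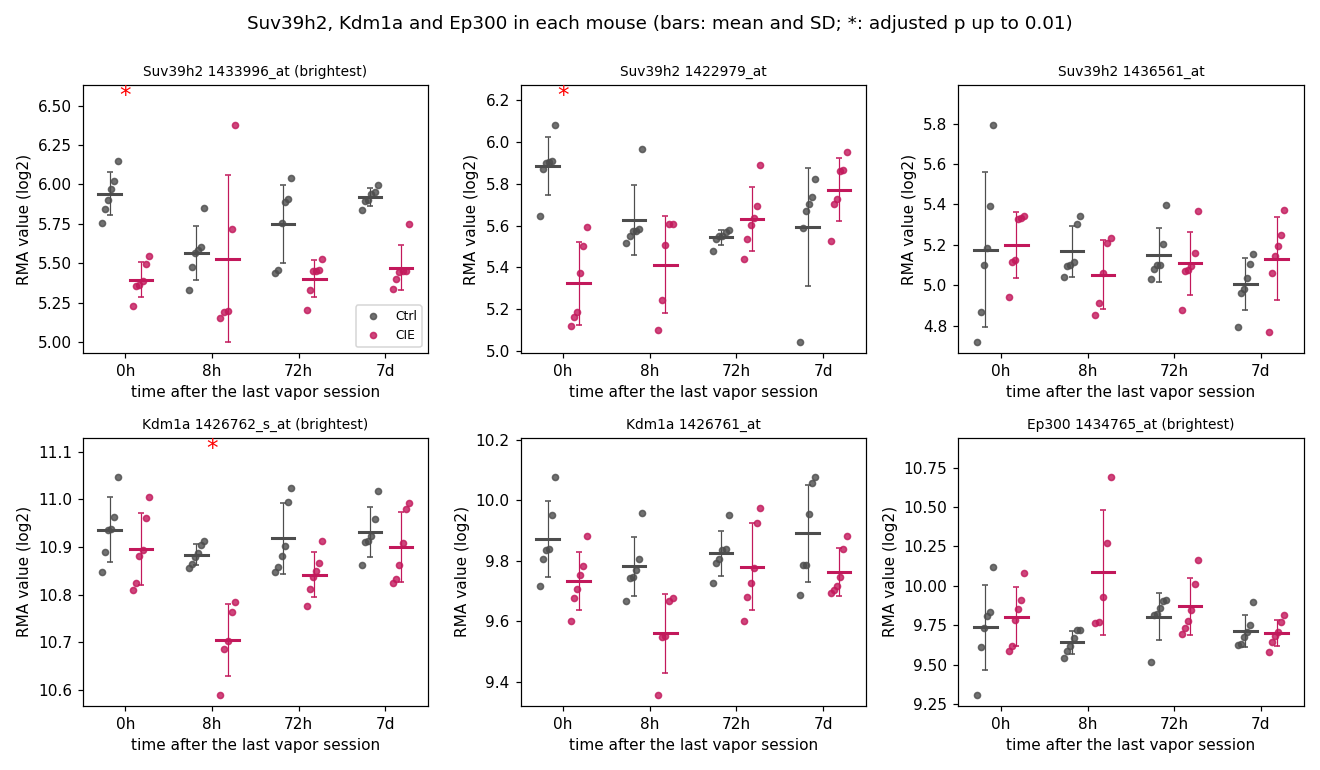
RMA value (log2, vertical axis) of each mouse at each time for the 3 probesets of Suv39h2, the 2 of Kdm1a and the 1 of Ep300, Ctrl in grey and CIE in pink, with bars for the mean and SD of a group and a red star for an adjusted p up to 0.01. The groups are apart at 0h on the first pair of Suv39h2 panels and at 8h on the first Kdm1a panel, and the highest CIE point at 8h for Suv39h2 (6.38) and Ep300 (10.7) is mouse 15.

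Among the 10 demethylases, 8 were lower in CIE mice at 0h, 7 at 8h, 8 at 72h and 6 at 7d, with medians of -0.10, -0.13, -0.08 and -0.02. Of all genes, 52.5%, 53.1%, 48.1% and 47.3% were higher at these times, and the class was not tested against them. Kdm1a was the only demethylase to pass on its brightest probeset. Without mouse 15 the 8h median of the demethylases was -0.03, with 7 of 10 lower. Kdm4a, a jumonji enzyme for tri-methyl H3K9 and H3K36, was the nearest to a rise, by 0.30 at 0h (95% interval 0.12 to 0.48, adjusted p = 0.0162) and 0.28 at 7d (adjusted p = 0.0658). Its CIE mice at 0h had a lowest value of 7.66, a median of 7.86 and a highest of 7.89, and its Ctrl mice 7.20, 7.55 and 7.82, so the groups overlapped. Without Ctrl mouse 56 this difference passed. On their brightest probesets Kdm5a and Kdm5b, paralogs that act on tri-methyl H3K4, showed -0.70 (adjusted p = 0.16) and -0.17 (adjusted p = 0.253) at 8h. The first of these rested on repeat group 2: the CIE mice had 6.40 (mouse 15), 8.48 (mouse 23), 9.42, 9.53 and 9.60, against 8.58 to 9.97 in Ctrl mice, and without mouse 15 the differences were -0.13 and -0.01. On this probeset Kdm5a had the widest spread of all 38 enzymes (SD 0.575). The other Kdm5a probesets differed at 8h by 0.24, 0.23, 0.05, 0.02 and -0.21, so they did not share a sign. The 95% intervals of those at 0.24 (0.06 to 0.42) and 0.23 (-0.02 to 0.47) did not meet that of the brightest (-1.37 to -0.03). Without mouse 15 the values were 0.19, 0.14, 0.10, 0.04 and 0.16, in the same order.

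The acetyltransferases had members on both sides of 0 at every time. Ep300 and Crebbp are paralogous coactivators, known as p300 and CBP, that acetylate H3K27 at enhancers. At 8h their brightest probesets lay on opposite sides: Ep300 differed by 0.44 (95% interval 0.21 to 0.68, adjusted p = 0.013) and Crebbp by -0.36 (95% interval -0.65 to -0.08, adjusted p = 0.084). The difference between the pair was not tested. The other Crebbp probesets differed by 0.03, 0.10 and -0.39 at 8h, so they did not share a sign. Without mouse 15 these values were 0.06, -0.01 and 0.09, in the same order. The 5 CIE values of Ep300 were 9.76, 9.77, 9.93, 10.3 and 10.7, all above the Ctrl mice at 9.54 to 9.72. The 2 highest were mice 23 and 15 of repeat group 2, and the difference was 0.79 within that group and 0.23 within repeat group 1. Crebbp showed -0.86 and -0.05 in the same order, and without mouse 15 the 2 genes stood at 0.29 (adjusted p = 0.0979) and -0.10 (adjusted p = 0.595). With repeat group as a term Ep300 passed, at 0.48 (adjusted p = 0.00243), as it did without CIE mouse 40 or CIE mouse 51.

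Kat6a and Kat6b are MYST enzymes that acetylate H3K23 and H3K14. Kat6a at 72h had Ctrl mice with a lowest value of 8.65, a median of 8.76 and a highest of 8.91 and CIE mice with 8.44, 8.52 and 8.60, which did not overlap. The difference of -0.26 (95% interval -0.41 to -0.12) missed the threshold (adjusted p = 0.0331) and passed with array weights (adjusted p = 0.00231). At 7d it was -0.20 (adjusted p = 0.102). The most variable Kat6a probeset differed by -0.0017 at 72h (adjusted p = 0.999). Kat6b differed by -0.10 at 72h (95% interval -0.29 to 0.09) and by 0.20 at 0h (adjusted p = 0.159). Kat8, the H4K16 acetyltransferase, showed -0.25 at 0h (adjusted p = 0.0222), -0.02 at 72h and 0.10 at 7d. At 8h Kat8 showed -0.23 (adjusted p = 0.0515), and -0.18 without mouse 15 (adjusted p = 0.202). It came nearest to a dependence on time, with an adjusted p of 0.0495. Kat2b, a GCN5-family enzyme, was higher at 0h, 72h and 7d by 0.35, 0.29 and 0.31, with adjusted p of 0.0742, 0.301 and 0.211, while its close relative Kat2a differed by 0.08, 0.07 and 0.13. At 8h the values were -0.07 for Kat2b (-0.18 without mouse 15) and -0.01 for Kat2a.

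Of the H3K4 methyltransferases and SET or MYND enzymes, 7 of 9 were lower in CIE mice at 0h, 5 at 8h, 7 at 72h and 7 at 7d. The shares of all genes are those given above beside the demethylases, and no test against them was made. Smyd3, a MYND-domain lysine methyltransferase, came closest at 8h, with CIE mice at 7.37, 7.58, 7.80, 8.12 and 8.18 and Ctrl mice between 8.01 and 8.38. The lowest pair of CIE values were again mice 15 and 23. The difference was -0.41 (95% interval -0.64 to -0.18, adjusted p = 0.0186), -0.30 without mouse 15 (adjusted p = 0.11), and -0.30 and -0.64 within repeat groups 1 and 2. It passed without CIE mouse 51 or CIE mouse 69 and with repeat group as a term. The other Smyd3 probeset differed by 0.08 at 8h and by 0.40 at 72h (adjusted p = 0.029). Kmt2c, the MLL3 enzyme of enhancers, differed by -0.22 at 8h (adjusted p = 0.0538), with 9.99 in mouse 15 and 10.4 to 10.6 in the other CIE mice, and by -0.12 without that mouse. With array weights it was -0.18 and passed (adjusted p = 0.00537). Its differences within the repeat groups were -0.22 and -0.25.

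The methyltransferases of H3K27, H3K36 and H3K79 had 0 calls, as given above. Ezh1 and Ezh2, alternative catalytic subunits of the Polycomb complex PRC2, showed -0.01 and 0.11 at 0h and 0.13 and 0.11 at 8h. At 72h they showed 0.13 and 0.03, and at 7d 0.04 and -0.21. On these brightest probesets the smallest adjusted p of the pair was 0.401. Without mouse 15 the 8h values were -0.04 and 0.10, so that of Ezh1 changed sign. Their 95% intervals at 0h were -0.23 to 0.21 and -0.14 to 0.37. Of the other Ezh1 probesets, one differed by -0.46 at 8h (adjusted p = 0.0538), or by -0.22 without mouse 15, beside 0.15 and 0.14 on the others. The probeset at 0.15 differed by -0.42 at 7d (adjusted p = 0.0277). Both negative differences had intervals apart from that of the brightest probeset at the same time. Dot1l, the only known H3K79 methyltransferase, differed by -0.19 at 72h (95% interval -0.31 to -0.07, adjusted p = 0.0912), with Ctrl mice between 8.39 and 8.68 and CIE mice between 8.28 and 8.52. Nsd1, which di-methylates H3K36, differed by -0.25 at 8h (adjusted p = 0.154), by -0.02 within repeat group 1 and by -0.59 within repeat group 2, and by -0.15 without mouse 15.

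Some calls came from probesets other than the brightest. At 0h 5 of the 60 other probesets of these enzymes were called, at 8h 1, at 72h 0 and at 7d 2, beside 6.91%, 3.5%, 0.501% and 1.01% of the other probesets of all genes. At 72h, 0 of the 60 passed limma. Without mouse 15 the 1 call at 8h was another gene's: Kdm2a was lost, and a dim probeset of Kmt2e, a SET-domain protein of the trithorax group, was called at 0.52 (adjusted p = 0.00724), beside 0.39 (adjusted p = 0.0287) with all mice. The 7 probesets involved belonged to Suv39h2, Smyd5, Kdm6b and Kdm2a, and 6 of the 7 had a mean below 6, as did 29 of all 60. The other probesets had the sign of the brightest in 37, 25, 34 and 30 of 60 cases at 0h, 8h, 72h and 7d, and their 95% interval did not meet that of the brightest in 4, 10, 2 and 5.

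Smyd5, an enzyme of the SET and MYND family, showed the largest of these differences. Its dimmest probeset, with a mean of 5.60, fell at 0h by 0.91 (SE 0.23, adjusted p = 0.00451) and at 7d by 1.10 (SE 0.23, adjusted p = 0.00373). At 0h Ctrl mice had a lowest value of 5.85, a median of 6.13 and a highest of 6.64 and CIE mice 4.94, 5.20 and 5.62, and at 7d the groups were 5.46, 5.84 and 7.15 and 4.56, 4.85 and 5.22. Neither pair of groups overlapped. At 8h the sign was the other one, 0.56 (95% interval 0.08 to 1.04, adjusted p = 0.112), and the dependence on time passed (adjusted p = 0.00271), with the step from 0h to 8h being 1.47 (SE 0.33, adjusted p = 0.00314). Part of this step lay in the Ctrl mice, whose 8h minus 0h difference was -0.79 (adjusted p = 0.0315). Without mouse 15 the 8h value was 0.31 and the time test still passed (adjusted p = 0.00684).

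The rest of Smyd5 did not follow. The middle probeset, with a mean of 7.07, fell at 0h by 0.54 (adjusted p = 0.0075) and differed by 0.09 at 7d. The brightest differed by -0.01 at 0h (95% interval -0.19 to 0.18), an interval apart from those of both others, and by -0.05 at 7d (-0.23 to 0.13), apart from that of the dimmest. The call at 0h on the dimmest was lost without Ctrl mouse 2 (adjusted p = 0.0153), CIE mouse 11 (0.0129) or CIE mouse 5 (0.0128), and with the striatal markers as a term, where the difference was -0.86 (0.0166). The call at 7d was lost without Ctrl mouse 46 (-0.86, adjusted p = 0.0187) or CIE mouse 27 (0.0132), 37 (0.0119) or 45 (0.011). That on the middle probeset was kept in 4 of 12 such fits, was lost without Ctrl mice 12, 2, 48, 56 or 78 or CIE mice 17, 5 or 67, with adjusted p up to 0.0296, and was -0.45 with the striatal term (adjusted p = 0.0406).

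Kdm2a, a jumonji demethylase of di-methyl H3K36 that binds CpG islands through its CXXC domain, had 7 probesets and 3 of them were called, at different times and in opposite directions. The one with a mean of 4.31 fell at 0h by 0.52 (SE 0.10, adjusted p = 0.000572), with Ctrl mice between 4.68 and 4.87 and CIE mice between 3.97 and 4.53. The one with a mean of 5.28 fell at 8h by 0.43 (SE 0.09, adjusted p = 0.00172), with Ctrl mice between 5.23 and 5.41 and CIE mice at 4.43, 4.94, 5.02, 5.04 and 5.06. The one with a mean of 4.91 rose at 7d by 0.59 (SE 0.12, adjusted p = 0.00316), with Ctrl mice between 4.59 and 4.73 and CIE mice between 4.96 and 5.60. In all of these the groups were apart. The brightest probeset differed by -0.09, -0.05, -0.09 and -0.02 at the 4 times, and its 95% interval did not meet that of the called probeset at 0h, at 8h or at 7d.

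Behind these Kdm2a calls lay other differences as well. All 3 Kdm2a probesets were dim. The one called at 0h, whose difference with the striatal term was -0.50 (adjusted p = 0.00278), varied with harvest time among the Ctrl mice themselves (F test, adjusted p = 0.000537): Ctrl mice at 8h minus Ctrl mice at 0h was -0.59, beside the CIE difference of -0.52 at 0h. The difference on the probeset called at 7d depended on time (adjusted p = 0.000972), and it was -0.42 at 8h (adjusted p = 0.0253; -0.29 and 0.148 without mouse 15), on the other side of 0 from 7d. The fall on the probeset called at 8h was -0.31 without mouse 15 (adjusted p = 0.0136), and -0.32 and -0.61 within repeat groups 1 and 2. The rise at 7d was lost without CIE mouse 37 (0.52, adjusted p = 0.0166).

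Kdm6b, the jumonji demethylase of tri-methyl H3K27, fell at 0h on its dimmest probeset by 0.35 (SE 0.10, adjusted p = 0.00995), at the edge of the threshold. Ctrl mice had a lowest value of 5.44, a median of 5.93 and a highest of 6.32 and CIE mice 5.47, 5.55 and 5.74, so the groups overlapped, and the SD was 0.289 in Ctrl and 0.0955 in CIE mice. Among Ctrl mice, 72h minus 0h was -0.47 on this probeset (limma, adjusted p = 0.00207) and 8h minus 0h was -0.31 (adjusted p = 0.0469). The F test of the Ctrl groups over time gave an adjusted p of 0.0109, short of the threshold. The call was kept in 2 of 12 fits without 1 mouse. Left out singly, Ctrl mice 12, 20, 48, 56 and 78 and CIE mice 11, 43, 5, 67 and 72 each ended it, with adjusted p up to 0.0471, and with the striatal term the difference was -0.31 (adjusted p = 0.0403). The probeset used for this gene lay on the same side at 0h, by -0.37 (95% interval -0.76 to 0.02, adjusted p = 0.197), and so did one marked as cross-hybridizing, by -0.25 (adjusted p = 0.191).

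**Figure D3:**
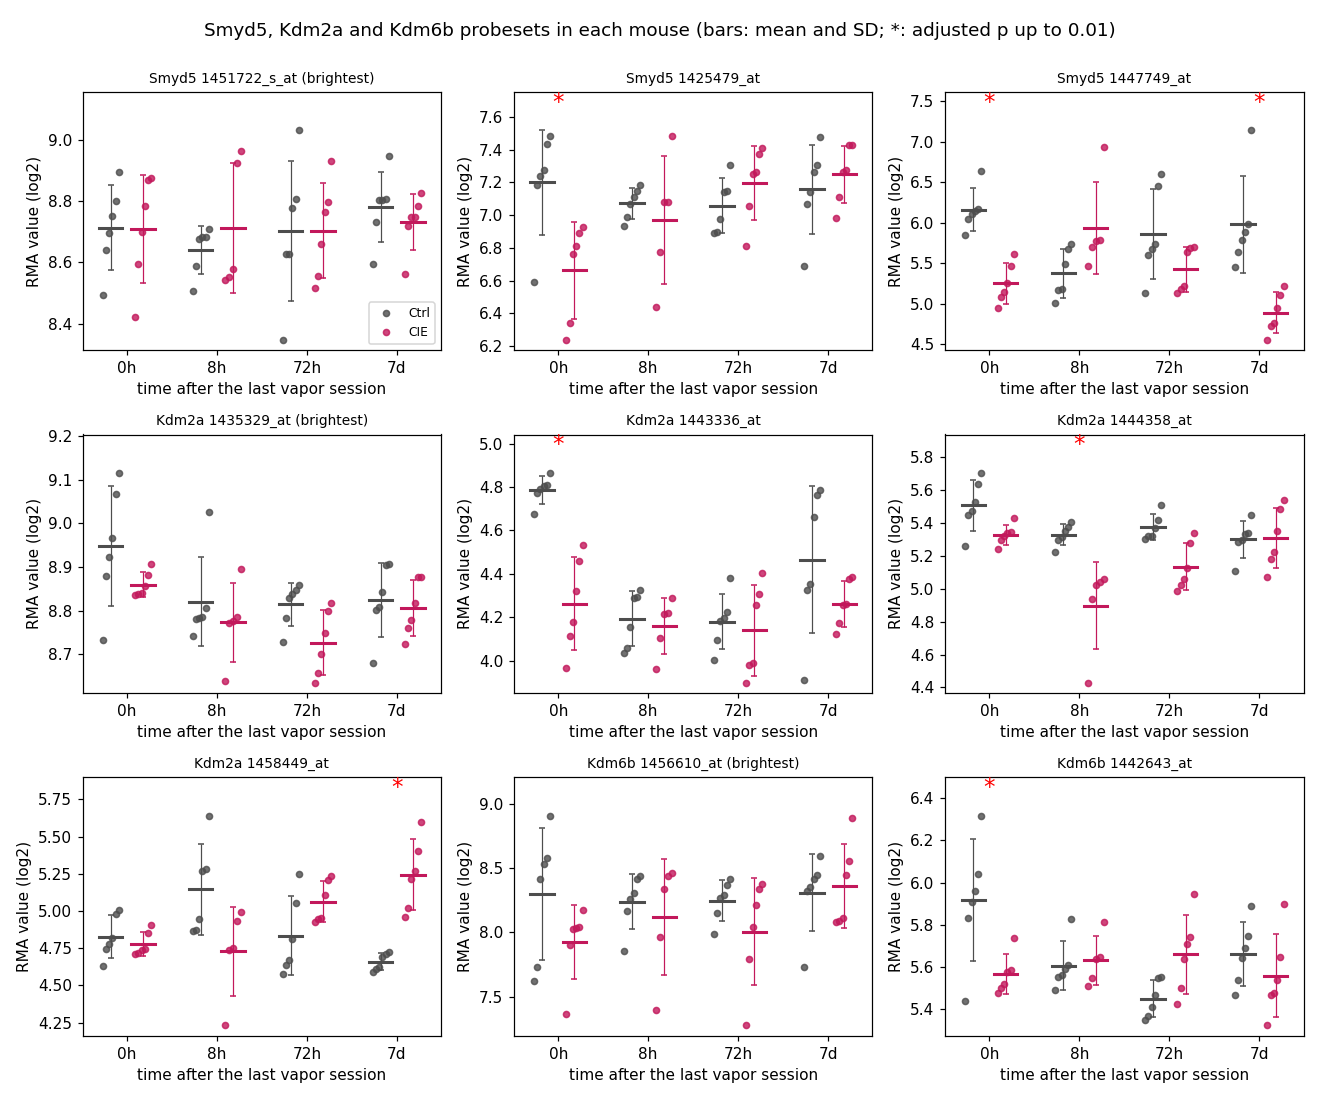
RMA value (log2, vertical axis) of each mouse at each time for 3 probesets of Smyd5, 4 of Kdm2a and 2 of Kdm6b, Ctrl in grey and CIE in pink, with bars for the mean and SD of a group and a red star for an adjusted p up to 0.01. The brightest probeset of each gene has no star, and the starred panels differ in the time at which the groups separate.

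**Figure D4:**
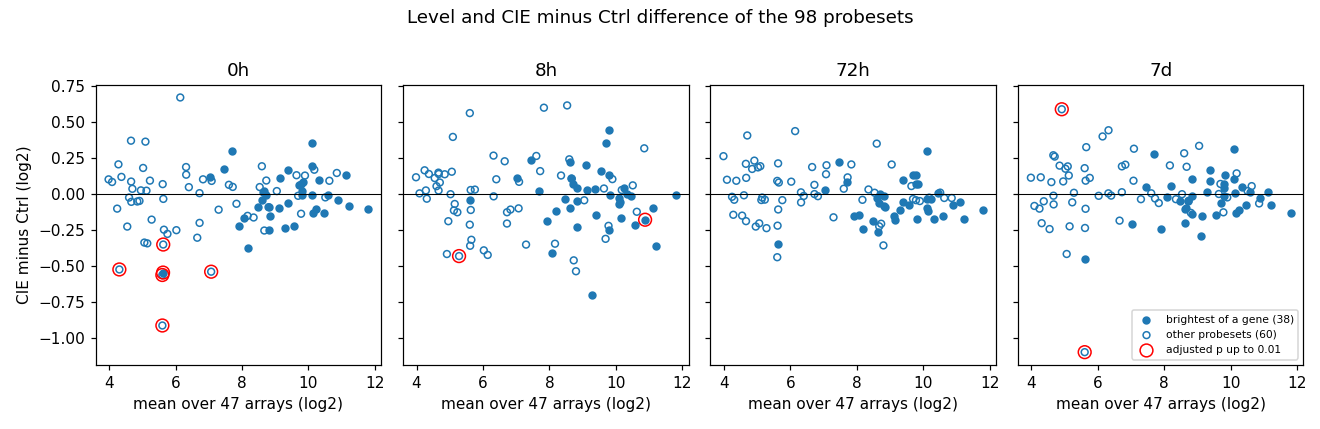
CIE minus Ctrl difference (log2, vertical axis) against the mean over 47 arrays (log2, horizontal axis) of the 98 probesets at each time, filled for the brightest of each gene and open for the other 60, with red rings for an adjusted p up to 0.01. Of the 10 rings at 0h, 8h and 7d all but that of Kdm1a lie at means up to 7.07, and 72h has 0.

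Whether the ethanol difference varied over the 4 times was tested directly. On the brightest probesets it did so for 0 of 38 enzymes by limma's F test (5 at unadjusted p up to 0.05), against 3.77% of all genes. Among Ctrl mice alone, 0 of 38 varied with harvest time (5 at unadjusted p up to 0.05), against 1.52% of all genes, and Kdm4a had the smallest adjusted p, 0.0639. On the brightest probesets of Suv39h2 and Kdm1a, a call at only 1 time therefore does not show a difference between times. Nor does an F test short of the threshold show that there was none. On the other 60 probesets, 3 passed the first test, those of Suv39h2, Smyd5 and Kdm2a given above, and 1 the other. The share passing among other probesets of all genes was not counted, so these counts are no result about the enzymes.

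Related enzymes and partners from 4 further lists gave the wider picture of the pathway. Of 35 other histone-modifying enzymes measured, 1 rose and 4 fell at 0h and 1 rose at 8h, which is 14.3% and 2.86% called, where 3.96% of all genes rose and 3.48% fell at 0h and 2.21% rose and 1.28% fell at 8h. Phf2, a jumonji demethylase of H3K9, rose by 0.38 at 0h (adjusted p = 0.000559). Those that fell at 0h were Hat1, the acetyltransferase of newly made H4, by 0.27 (adjusted p = 0.000639), the arginine methyltransferases Prmt7, by 0.32 (adjusted p = 0.00276), and Prmt1, by 0.38 (adjusted p = 0.00644), and the H3K4 methyltransferase Setd1b, by 0.46 (adjusted p = 0.00757). Prmt6, another arginine methyltransferase, rose by 0.45 at 8h (adjusted p = 0.00741; 0.0294 without mouse 15). Phf2 and Hat1 passed in all 12 fits without 1 mouse, Prmt7 in 9, Prmt1 in 5 and Setd1b in 5 of 12, and Prmt6 in 6 of 11. Prmt1 and Setd1b are named to complete the count.

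Subunits of the complexes in which the enzymes work had up to 3 calls per list and time, and the lists were not tested against other genes. The share called at 0h and 8h was 2.94% and 5.88% of the acetyltransferase subunits, 3.03% and 9.09% of the methyltransferase subunits and 11.1% and 5.56% of the demethylase subunits, and at 72h it was 2.94% of the first and 0 of the others. Beside these, 3.96% of all genes rose and 3.48% fell at 0h, 2.21% and 1.28% at 8h, and 0.286% and 0.159% at 72h. The lists are short, so that 11.1% is 2 of 18 genes and 2.94% is 1 of 34. Of 34 acetyltransferase complex subunits, Ing4, a reader of H3K4 methylation, fell at 0h by 0.49 (adjusted p = 0.00413). Tada1 and Taf5l belong to the SAGA-type complexes: Tada1 fell at 8h by 0.22 (adjusted p = 0.00336; 0.0124 without mouse 15) and Taf5l at 72h by 0.30 (adjusted p = 0.000717). Epc2, of the NuA4 complex, rose at 8h by 0.34 (adjusted p = 0.00846), and without mouse 15 the difference was 0.21 (adjusted p = 0.0675). These calls were kept in 9 of 12, 8 of 11, 12 of 12 and 5 of 11 fits without 1 mouse, in the order Ing4, Tada1, Taf5l and Epc2.

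Of 33 methyltransferase complex subunits, Mllt3, which binds acetylated H3 and brings in Dot1l, rose at 0h by 0.33 (adjusted p = 0.00324, kept in 10 of 12 fits). At 8h the H3K9-methyl readers Cbx1 and Cbx3, known as HP1 proteins, rose by 0.46 and 0.45 (adjusted p = 0.00359 and 0.00843), as did Phf19, a PRC2 partner, by 0.36 (adjusted p = 0.00844). Without mouse 15 these differences were 0.28, 0.50 and 0.31 (adjusted p = 0.0228, 0.00979 and 0.0426), and their calls were kept in 9, 2 and 2 of 11 fits. Of 18 demethylase complex subunits, Bcor, a corepressor that shares a Polycomb-type complex with Kdm2b, fell at 0h by 0.65 (adjusted p = 2.27e-06) and rose at 8h by 0.40 (adjusted p = 0.0038; 0.0143 without mouse 15), and its difference varied with time (F test, adjusted p = 2.51e-05). Gse1, a CoREST partner of Kdm1a, fell at 0h by 0.27 (adjusted p = 0.00729, kept in 4 of 12 fits). At 7d 0 genes of the 4 lists passed limma (6, 6, 3 and 2 at unadjusted p up to 0.05), and the medians of the lists lay between -0.06 and 0.06 at every time.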

How the data were processed

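RNA of single mice was hybridized to Affymetrix arrays. The authors deposited log2 values: RMA and a first quantile normalization were run batch by batch, a further quantile normalization took all arrays together, and ComBat then treated repeat group as the batch. For the versions of these tools, the sources used here give none. Because ComBat was applied before deposit, repeat group effects were already adjusted once.

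Probesets were named through the platform annotation, of 45037 probesets 34945 having 1 symbol, 932 several and 9160 none, and 34741 were updated by Entrez identifier. Value columns left out numbered 0, and identical array pairs 0. limma 3.58.1 in R 4.3.3 was fitted to all probesets and 8 group means, with Benjamini-Hochberg adjustment over all probesets and a threshold of 0.01. Intervals are unadjusted 95% intervals, and the model was tested on simulated data. Named by rule were genes past the threshold on any probeset, the 2 of smallest p in each class where none passed, and up to 4 called genes per further list. Also named by rule were the measured pairs of paralogs (Ep300 and Crebbp, Kat6a and Kat6b, Ehmt1 and Ehmt2, Ezh1 and Ezh2, Kdm5a and Kdm5b). Other members named (Kdm4a, Kat2a, Kat2b, Kat8, Kmt2e, Setdb1, Setdb2) were chosen after their values were seen. Members and lists were chosen with earlier results of these data known. Alternatives are listed in the closing section.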

Additional observations from a re-analysis of the deposited data

Results flagged for a closer look

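In 32 groups of 5 or 6 mice tested with Dixon's ratio (the gap of the end value to its neighbour over the whole range), 4 held a mouse that stood apart, and chance flags about 1 in 20 groups. For the Kdm2a probeset with a mean of 5.28, CIE mouse 15 at 8h lay at 4.43 and the others between 4.94 and 5.06, a ratio of 0.812. For Kmt2c the same mouse lay at 9.99 and the others between 10.4 and 10.6, a ratio of 0.742. For the middle Smyd5 probeset, Ctrl mouse 20 at 0h lay at 6.59 and the others between 7.18 and 7.48, a ratio of 0.664. For the dimmest Smyd5 probeset, Ctrl mouse 46 at 7d lay at 7.15 and the others between 5.46 and 5.99, a ratio of 0.685.

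The CIE minus Ctrl difference varied over the 4 times by limma's F test on 3 member probesets. These were the Kdm2a probeset with a mean of 4.91 (adjusted p = 0.000972), the dimmest Smyd5 probeset (adjusted p = 0.00271) and the Suv39h2 probeset next in brightness (adjusted p = 0.00218). None of them is the brightest of its gene, and 0 of 38 brightest probesets passed this test. The share passing among other probesets of all genes was not counted.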

How the results depend on the processing

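Of the 38 enzymes 1 was called at 0h, 1 at 8h, 0 at 72h and 0 at 7d, 0 varied in their difference over the times and 0 with time among Ctrl mice. Repeat group as a term gave 2 at 0h (Kat8, Suv39h2), 3 at 8h (Ep300, Kdm1a, Smyd3), 1 at 7d and 1 among Ctrl mice (Suv39h2 in both). Repeat group 1 alone gave 3 at 0h (Kat8, Kdm4a, Suv39h2), 0 at 8h, and 1 at 7d and 1 among Ctrl mice (Suv39h2 in both). Array weights gave 4 at 0h (Kat8, Kdm4b, Kmt2a, Suv39h2), 4 at 8h (Ep300, Kat6a, Kdm1a, Kmt2c), 2 at 72h (Kat6a, Suv39h2), 4 at 7d (Kat6a, Kdm4b, Kmt2d, Suv39h2), 1 varying in the difference (Kmt2a) and 5 among Ctrl mice (Kat2b, Kdm4a, Kmt2a, Kmt2d, Suv39h2). A threshold of 0.05 gave 3, 3, 1 and 1 at the times and 1 varying in the difference (Kat8). The most variable probeset of each gene gave 2 at 0h, 0 at 8h, 1 at 7d and 1 varying in the difference. It turned Dot1l at 72h to 0.0352 and Smyd3 at 8h to 0.0785, and put Kat6a at 72h at -0.0017. Counting any probeset gave 4 at 0h, 2 at 8h and 2 at 7d. Quantile normalization once more gave 0 at 8h, the filter at a mean of 6 gave 0 at 0h because it removed Suv39h2, the striatal term gave 2 at 0h (Kdm3a, Suv39h2), and single-time fits gave 0 at 8h and 1 at 7d (Suv39h2). Leaving out each mouse gave 1 to 2 at 0h, 0 to 3 at 8h, 0 at 72h and 0 at 7d, and without CIE mouse 40 the call at 8h was Ep300, not Kdm1a. The cause of the other changes was not tested. For all genes the share called was not counted under these settings, so a changed count is no result about the enzymes. An intensity trend with robust moderation changed none of the counts of enzymes. Leaving mouse 15 out of the test over times, chosen after seeing the data, left it at 0. No paired analysis was possible because mouse numbers are not shared between groups. A dim probeset, such as those of Suv39h2, carries less signal over background.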
